A study of Mus musculus with 16 samples.

Results

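Chaperones and foldases are the proteins that help other proteins reach and keep their shape. The genes described here were taken from the probe annotation of the array by symbol. They are the heat shock protein genes named Hspa, Hspb, Hspd, Hspe, Hsph and Hsp90 with a number, the J-domain genes Dnaja, Dnajb and Dnajc, the chaperonin genes Cct2 to Cct8 with Tcp1, the isomerase genes named Fkbp with a number and Ppia to Ppih, the disulfide isomerase genes named Pdia, and St13. Hspa5 was left out. The rule used no measured value and found 131 probes of 81 genes, among 20355 probes and 9930 genes with a single symbol. It takes in cytosolic and mitochondrial members, and also 14 genes whose products work in the endoplasmic reticulum.

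Azacytidine is an analogue of cytidine that cells incorporate into RNA and DNA, where it captures and depletes DNA methyltransferases. It was given to NIH3T3 cells, an established mouse fibroblast line. Erbb2-transfected NIH3T3 cells at 10 µM azacytidine were measured on 8 arrays, the same transfected cells at 5 µM on 4 arrays, and untransfected NIH3T3 cells at 10 µM on 4 arrays. Each 2-colour cDNA array set treated cells against untreated cells of the same line, so the Erbb2 transgene was present in both channels of the first 2 groups and in neither channel of the third. The sources used here do not give the time of treatment, the promoter of the transgene or whether the transfected line is 1 clone. Nor do they say whether each array had its own culture, so p-values measure the spread between arrays, which may be technical.

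Molecular chaperones of the Hsp70 class bind exposed hydrophobic stretches of unfolded proteins in a cycle driven by ATP. J-domain proteins start that cycle, while nucleotide exchange factors and the cofactor Hip, the product of St13, set how long a client is held. Chaperonins such as mitochondrial Hsp60 and cytosolic TRiC enclose a protein in a chamber, Hsp90 acts late on kinases and receptors (ERBB2 is a known Hsp90 client), and the isomerases turn proline bonds or exchange disulfide bonds. Many of these genes are induced by the heat shock factor HSF1 in the cytosol or by the unfolded protein response in the endoplasmic reticulum.

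Each value is the log2 of treated over untreated cells, with ± giving its standard error in a limma fit to all 16 arrays. A gene passed when its p, adjusted by Benjamini and Hochberg's method over all 12420 features, was under 0.05. An array gave between 16153 and 18507 ratios, with an interquartile range of 0.71 to 1.36. Precision is limited by how many arrays there were and by how little they agreed. As deposited, arrays of 1 group with treated RNA in the same dye had mean correlations of 0.031, 0.072 and 0.135. The order is Erbb2 cells at 10 µM, Erbb2 cells at 5 µM and untransfected cells. Arrays with treated RNA in opposite dyes had mean correlations of 0.004, -0.006 and -0.086. Which dye was the numerator is not stated, and each deposited ratio was read as Cy5 over Cy3. The data do not settle this. The median ratio before the authors' shift lay above 1 on 15 of 16 arrays whichever dye the treated RNA carried, which bears on whether 1 dye was the numerator throughout and not on which dye it was. Were the values Cy3 over Cy5, every sign would turn, so results are given as below or above 0 on this reading, and the direction of the response to azacytidine is unknown. The untransfected arrays carry the same dye label in both channels, so the signs of that group and of its comparison with Erbb2 cells rest on the label of channel 1. Markers cannot check the identity of the cells here, because each array holds ratios within 1 line.

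Of the 81 genes, 71 had values on enough arrays to be tested. The 10 others were Cct2, Dnajb8, Dnajc1, Dnajc17, Dnajc5g, Fkbp11, Fkbp2, Fkbp8, Hspa1a and Pdia6. Hspa8, Hsp90ab1 and Pdia3 had no probe with a single symbol.

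Of the 71 genes tested, 6 passed in 1 of the groups, all below 0, and none passed in both lines. In Erbb2 cells at 10 µM, 2 of 71 genes passed below 0 and 0 above, against 1.26% of all features past the threshold (0.862% below 0, 0.403% above). They were St13 and Dnaja1, which encode partners of Hsp70. In Erbb2 cells at 5 µM, 0 of 71 passed by limma, against 0.209% of all features, and at an unadjusted p under 0.05 there were 2 above and 3 below 0 (3.09% and 3.24% of all features). In untransfected cells at 10 µM, 4 of 71 passed below 0 and 0 above, against 2.73% of all features (2.13% below 0, 0.596% above). These were the mitochondrial chaperonin gene Hspd1, the endoplasmic reticulum Hsp90 gene Hsp90b1, the TRiC subunit gene Tcp1 and the isomerase gene Fkbp1a. With so few calls the members' shares are not read as apart from those of all features. These calls rest on the spread shared by all 16 arrays. With each group fitted alone, 0 members passed in any group, and of all features 22 did so in Erbb2 cells at 10 µM, 0 in Erbb2 cells at 5 µM and 0 in untransfected cells. The members' median log2 ratio was -0.07 in Erbb2 cells at 10 µM, -0.13 in Erbb2 cells at 5 µM and -0.12 without the transgene, beside -0.003, -0.02 and 0.03 over all features. RNA of whole cultures was compared, so fewer cells carrying a transcript and less of it per cell cannot be told apart.

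**Figure D1:**
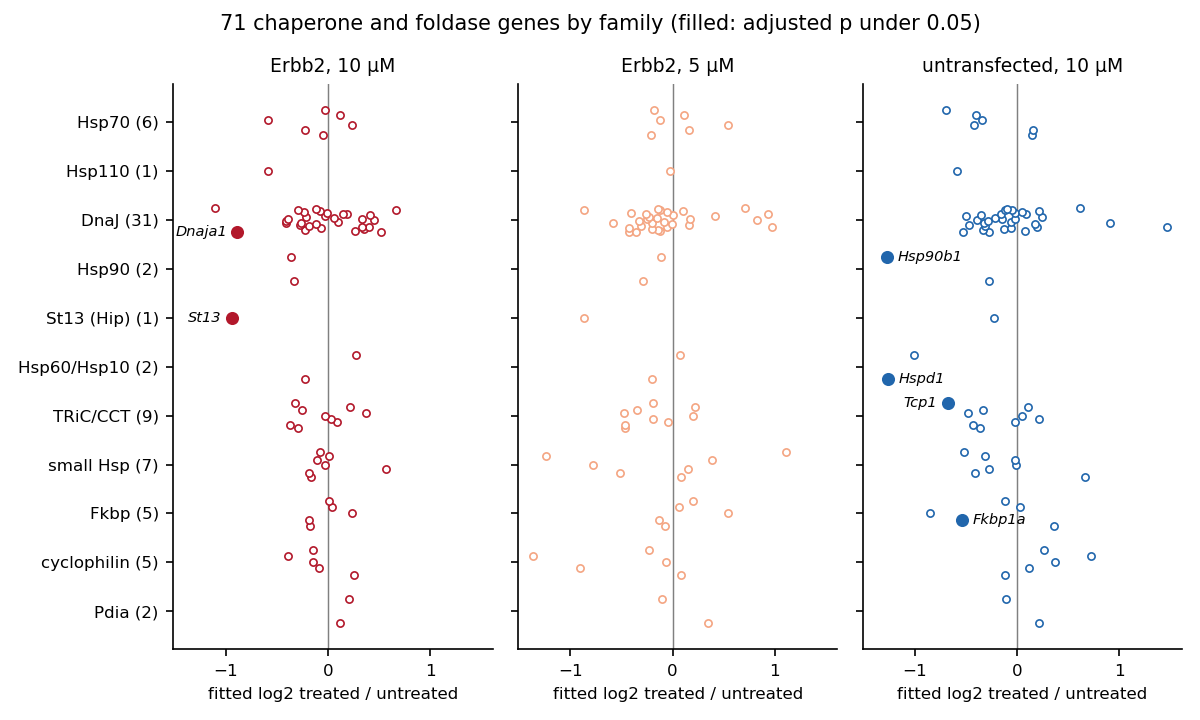
Fitted log2 ratios of treated over untreated cells (x axis) for the 71 genes tested, in rows by family with the number of genes in brackets. Each point is 1 gene, panels run from Erbb2 cells at 10 µM to Erbb2 cells at 5 µM and untransfected cells at 10 µM, and filled points have an adjusted p under 0.05. There are 2 filled points in the first panel, 0 in the second and 4 in the third, all below 0.

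The Hsp70 chaperones and their partners make up most of the genes tested, with 31 J-domain genes, 6 Hsp70 genes, Hsph1 and St13. St13 encodes Hip, which binds the ADP-bound form of Hsp70 and slows the release of its client. On the 8 arrays of Erbb2 cells at 10 µM its log2 ratio ran from -1.50 to -0.36 with a median of -0.93. At 5 µM its log2 ratios were -0.37, -1.24, -0.86 and -1.01, and in untransfected cells they were -0.48, 0.24, -0.15 and -0.50. Every array of Erbb2 cells lay below 0 at both doses, while the untransfected arrays lay on both sides and overlapped them. The fitted St13 value was -0.94 ± 0.16 at 10 µM in Erbb2 cells (a 1.92-fold change, limma adjusted p = 0.00565, n = 8 arrays). At 5 µM it was -0.87 ± 0.22 (adjusted p = 0.225, n = 4) and in untransfected cells -0.22 ± 0.22 (adjusted p = 0.909, n = 4). The call at 10 µM ended with that group fitted alone (adjusted p = 0.126), without its 3 widest arrays, 3, 5 and 6 (adjusted p = 0.052), and with a sparser St13 probe averaged in (-0.89 ± 0.24, adjusted p = 0.146). That probe ran from -2.21 to 0.84 over 5 of the 8 arrays. Another St13 probe, too sparse for any fit, ran from -0.56 to 4.69 over 5 arrays and lay above 0 on 4 of them. The response of St13 in Erbb2 cells minus that in untransfected cells was -0.71 ± 0.27 and did not pass (adjusted p = 0.352).

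Dnaja1 encodes a J-domain protein that stimulates the ATPase of cytosolic Hsp70. Its log2 ratio in Erbb2 cells at 10 µM ran from -1.44 to -0.43, with a median of -0.93. At 5 µM it was -0.514, -0.504, -0.155 and -0.545, and in untransfected cells it was -0.80, -0.73, 1.07 and -0.64. All 8 arrays at 10 µM and all 4 at 5 µM lay below 0, as did 3 of 4 untransfected arrays, the third of which stood far above. The fitted Dnaja1 value was -0.89 ± 0.19 in Erbb2 cells at 10 µM (a 1.85-fold change, limma adjusted p = 0.03). It was -0.43 ± 0.26 at 5 µM (adjusted p = 0.976) and -0.28 ± 0.26 in untransfected cells (adjusted p = 0.902). Without array 3 the untransfected value was -0.75 ± 0.20 (adjusted p = 0.076), and the difference of responses, Erbb2 minus untransfected, was -0.13 ± 0.23 (adjusted p = 0.934), against -0.61 ± 0.33 with it (adjusted p = 0.583). The Dnaja1 call at 10 µM in Erbb2 cells was close to the threshold, and leaving out any of 7 of the 8 arrays ended it, with adjusted p from 0.0567 to 0.0926, as did fitting that group alone (adjusted p = 0.067). Neither St13 nor Dnaja1 had a second probe in the fit, so each call rests on 1 probe.

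Among the other 30 J-domain genes tested, none passed in any group. The largest fitted value in size in Erbb2 cells at 10 µM was that of Dnajc9, a J-domain protein that binds histones, at -1.10 ± 0.36 over 6 arrays (adjusted p = 0.247). Its log2 ratios there ran from -2.75 to 0.10 with a median of -0.996. The untransfected arrays gave 0.91, 0.68, 0.16 and 0.72, all above the highest Erbb2 array at 10 µM. At 5 µM the Erbb2 arrays gave -0.847, 1.154, 0.658 and 1.857, with a fitted value of 0.705 ± 0.437 (limma adjusted p = 0.983). The first Dnajc9 array at 5 µM thus lay within the range of the 10 µM arrays, and the others lay above it. The response at 10 µM minus that at 5 µM was -1.81 ± 0.56 and did not pass (adjusted p = 0.998). Dnajb1, the heat-inducible Hsp40, was at -0.23 ± 0.19 in Erbb2 cells at 10 µM, -0.15 ± 0.26 in Erbb2 cells at 5 µM and -0.33 ± 0.26 without the transgene, with adjusted p of 0.719, 1 and 0.816.

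Of 6 Hsp70 genes tested, 0 passed in any group by limma with probes averaged per gene. Hspa4, an Hsp110-type exchange factor of Hsp70, had log2 ratios from -0.14 to 0.43 in Erbb2 cells at 10 µM, with a median of 0.12. It had 0.14, -0.12, 0.10 and 0.34 at 5 µM, against -0.57, -0.38, -0.19 and -0.48 in untransfected cells. With its probes averaged, the untransfected arrays thus lay below every Erbb2 array at 10 µM. Probe by probe they did not. The first probe ran from -0.90 to 0.45 in Erbb2 cells at 10 µM, against -0.62 to -0.24 in untransfected cells. On the other probe the groups met at -0.034. The fitted difference of responses was 0.53 ± 0.17 (adjusted p = 0.246), so it did not pass over all features. The inducible Hsp70 gene Hspa1b lay above 0 on all 4 arrays at 5 µM, from 0.43 to 0.60, with a fitted value of 0.54 ± 0.21 (adjusted p = 0.605). Hspa1b and Hspa1a are near-identical copies, so the gene behind this signal is uncertain. Hsph1, which encodes Hsp105, was at -0.58 ± 0.44 in Erbb2 cells at 10 µM, where array 3 alone stood at -4.66, and at -0.02 ± 0.58 at 5 µM and -0.59 ± 0.58 in untransfected cells (adjusted p of 0.682, 1 and 0.912).

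**Figure D2:**
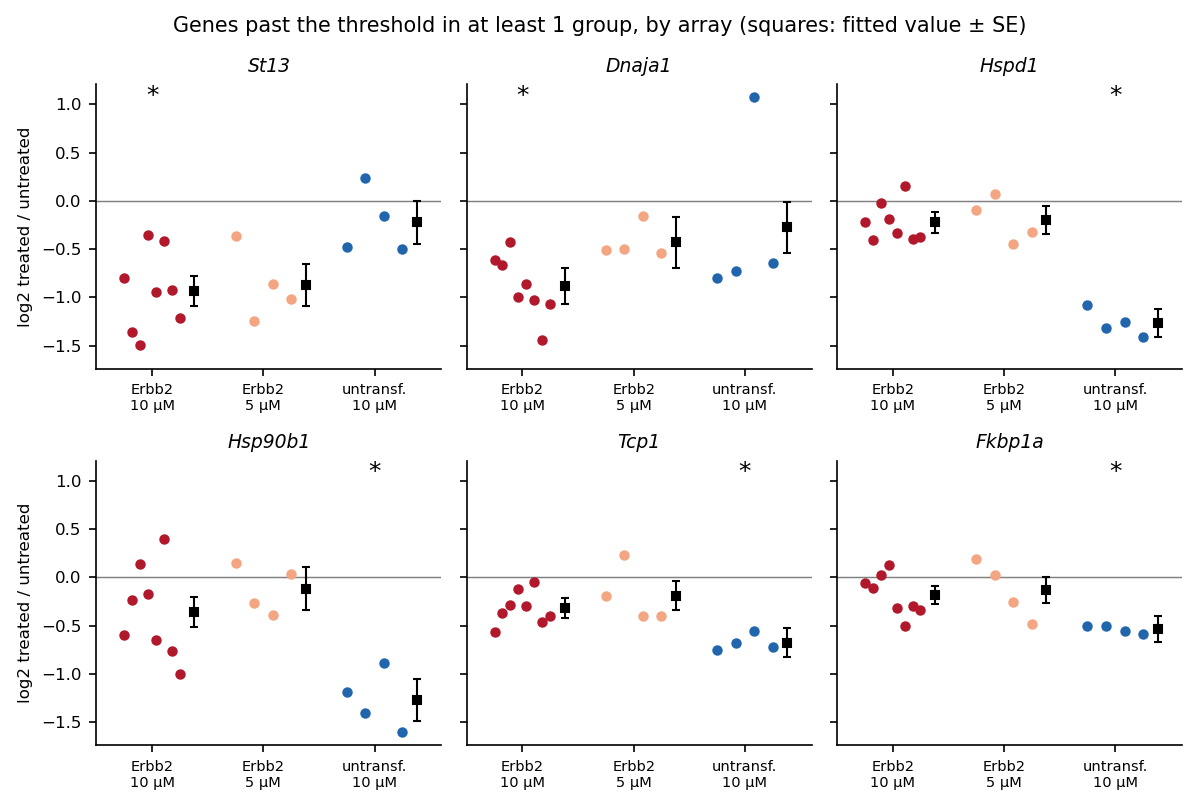
Log2 ratio of treated over untreated cells (y axis) on each array for the 6 genes past the threshold in at least 1 group. Coloured points are arrays, in the order Erbb2 cells at 10 µM, Erbb2 cells at 5 µM and untransfected cells at 10 µM, black squares with bars are fitted values ± SE, and an asterisk marks an adjusted p under 0.05. The 4 untransfected arrays of Hspd1 lie between -1.41 and -1.08, below all arrays of Erbb2 cells, while the St13 points of Erbb2 cells at 10 µM lie between -1.50 and -0.36.

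Among the mitochondrial members Hspd1 passed in untransfected cells. Hspd1 encodes Hsp60, the chaperonin chamber, and Hspe1 encodes Hsp10, its lid. In RefSeq (GRCm38.p6) they are neighbours on chromosome 1 that are read in opposite directions, Hspe1 from 55088148 on the plus strand and Hspd1 from 55087932 on the minus strand, 216 bases apart. A second Hspd1 start is annotated at 55088243, past the Hspe1 start. The stretch between the first pair of starts is shown because both genes are read away from it. It is chr1:55087948-55088147, the 200 bases before the Hspe1 start on the plus strand, with matches to a heat shock element of 3 units in capitals.
Hspe1 and Hspd1, shared upstream stretch: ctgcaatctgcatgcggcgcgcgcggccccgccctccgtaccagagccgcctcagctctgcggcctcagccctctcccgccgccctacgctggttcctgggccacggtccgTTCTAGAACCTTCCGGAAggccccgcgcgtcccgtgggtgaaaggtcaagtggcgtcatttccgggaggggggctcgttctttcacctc

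The motif is GAA, TTC and GAA with 2 bases of any kind between neighbours, or its reverse complement (TTC, GAA, TTC). The capitals hold 2 overlapping matches, 1 of each orientation, at 89 to 72 bases before the Hspe1 start. This motif was sought on both strands of all 32851 RefSeq promoter windows, each with 250 bases before and 50 after a start, and 0.603% of them held it. Among the 89 windows of member genes, 6.74% held it. Among the 69 member genes with a window, 4 held it, namely Dnajb6, Hspd1, Hspe1 and Hsph1. Hspd1 and Hspe1 hold the same matches, as their windows share 285 bases. A match is a description of the letters and no evidence of binding.

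Hspd1 in untransfected cells had log2 ratios of -1.08, -1.32, -1.25 and -1.41. In Erbb2 cells it ran from -0.41 to 0.16 at 10 µM, with a median of -0.28, and had -0.10, 0.07, -0.45 and -0.32 at 5 µM. The untransfected arrays lay below every array of Erbb2 cells. The fitted value was -1.27 ± 0.15 in untransfected cells (a 2.41-fold change, limma adjusted p = 0.000248, n = 4 arrays), -0.22 ± 0.10 in Erbb2 cells at 10 µM (adjusted p = 0.459, n = 8) and -0.20 ± 0.15 at 5 µM (adjusted p = 1, n = 4). With the untransfected arrays fitted alone it was -1.27 ± 0.15 and did not pass (adjusted p = 0.211), as 0 features did. Both kept Hspd1 probes showed the shift in the fit to all arrays, at -1.26 ± 0.19 and -1.27 ± 0.15 in untransfected cells.

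Hspe1 in untransfected cells had -1.18, -0.892, -0.825 and -1.146, all below 0. In Erbb2 cells it ran from -1.06 to 4.10 over 7 arrays at 10 µM, with a median of -0.11, and had 0.48, -0.58, 0.20 and 0.20 at 5 µM. A single array, the third of Erbb2 cells at 10 µM, carried the value of 4.10, next to 0.23 as the second highest. The untransfected Hspe1 value was -1.01 ± 0.59 and did not pass (adjusted p = 0.614). Without that 1 array, which sets the shared spread, it was -1.01 ± 0.23 (adjusted p = 0.0353).

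Hspa9 encodes mortalin, the Hsp70 of the mitochondrial matrix. Averaged over 3 probes it was at -0.70 ± 0.28 in untransfected cells, with array values of -0.78, -0.28, -0.75 and -0.98 (adjusted p = 0.296). In Erbb2 cells it was at -0.03 ± 0.19 at 10 µM and -0.18 ± 0.28 at 5 µM (adjusted p of 0.976 and 1). The probes disagreed in Erbb2 cells. The least variable of them passed on its own at 10 µM in both lines, with -0.45 ± 0.10 in Erbb2 cells (adjusted p = 0.0417 over single probes, below 0 on all 8 arrays, from -0.65 to -0.10) and -0.58 ± 0.14 in untransfected cells (adjusted p = 0.0403, from -0.72 to -0.44). The 2 other probes stood at -0.03 ± 0.23 and 0.41 ± 0.46 in Erbb2 cells at 10 µM.

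Over the 11 mitochondrial members tested, the median log2 ratio was -0.28 in untransfected cells with 9 below 0, -0.01 in Erbb2 cells at 10 µM with 6 below 0, and -0.26 at 5 µM with 9 below 0. Of all features 46.9%, 50.6% and 52.3% lay below 0 in the same order. Only Hspd1 among the 11 passed, in untransfected cells. The matrix J-domain gene Dnaja3 had -0.60, -1.01, -0.004 and -0.52 in untransfected cells.

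**Figure D3:**
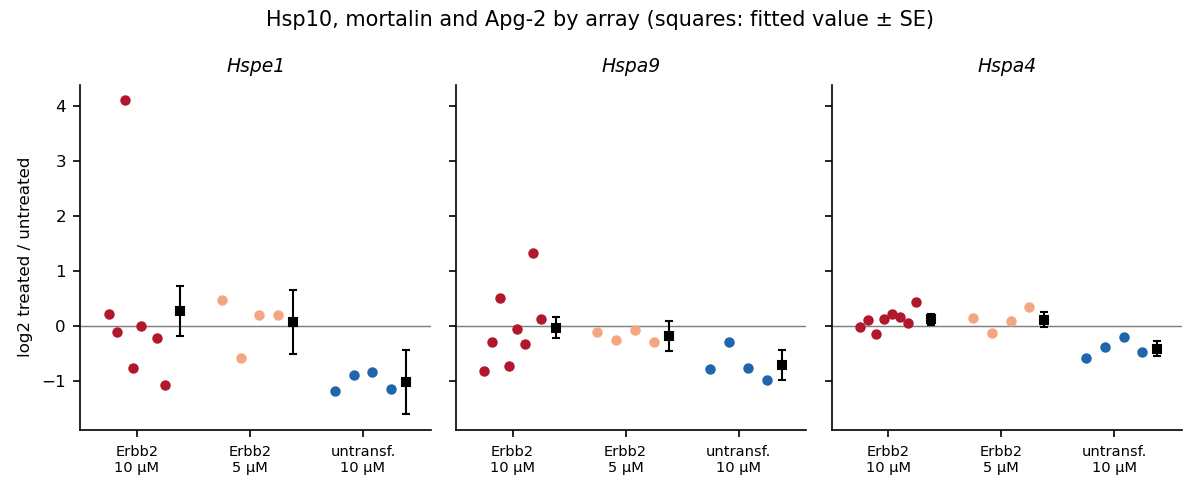
Log2 ratio of treated over untreated cells (y axis) on each array for Hspe1, Hspa9 and Hspa4, with groups in the order Erbb2 cells at 10 µM, Erbb2 cells at 5 µM and untransfected cells at 10 µM. Points are arrays and black squares with bars are fitted values ± SE. The untransfected arrays lie below 0 for all 3 genes, and 1 Hspe1 array of Erbb2 cells stands at 4.10.

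In the endoplasmic reticulum, Hsp90b1, which encodes GRP94 and folds integrins and Toll-like receptors, passed in untransfected cells. Its upstream stretch is shown because Hsp90b1 is a classical target of the unfolded protein response. It is chr10:86705445-86705694, the 250 bases before the start at 86705444, given on the minus strand on which the gene is read, from RefSeq GRCm38.p6. Capitals mark matches to the endoplasmic reticulum stress element, which is CCAAT and CCACG with 9 bases of any kind between them, sought on both strands.
Hsp90b1, upstream stretch: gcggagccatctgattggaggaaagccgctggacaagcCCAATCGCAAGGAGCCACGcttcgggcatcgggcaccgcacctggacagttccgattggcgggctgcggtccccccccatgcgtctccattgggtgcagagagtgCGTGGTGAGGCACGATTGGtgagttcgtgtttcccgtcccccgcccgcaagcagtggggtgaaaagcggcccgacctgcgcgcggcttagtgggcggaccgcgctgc

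One match starts 212 bases before the start and the other, on the opposite strand, 107 bases before it. Of all promoter windows 0.119% held this motif, and of the member windows 3.37%. The member genes that held it were Dnajc3, Hsp90b1 and Pdia6. CpG, the dinucleotide that DNA methyltransferases act on, occurred 27 times in the Hsp90b1 window, 39 times in each Hspd1 window, 22 times in that of Tcp1, 23 times in that of Fkbp1a, and 27, 36 and 36 times in the windows of the 3 Dnaja1 starts. The median was 23 over the member windows and 7 over all windows. Methylation was not measured.

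Hsp90b1 in untransfected cells had log2 ratios of -1.19, -1.40, -0.89 and -1.60. In Erbb2 cells it ran from -0.999 to 0.39 at 10 µM, with a median of -0.41, and had 0.15, -0.26, -0.39 and 0.03 at 5 µM. All untransfected arrays were low, and 1 of them overlapped the lowest Erbb2 array at 10 µM. The fitted value was -1.27 ± 0.22 in untransfected cells (a 2.41-fold change, limma adjusted p = 0.00422), -0.36 ± 0.15 in Erbb2 cells at 10 µM (adjusted p = 0.416) and -0.12 ± 0.22 at 5 µM (adjusted p = 1). The call ended with the untransfected arrays fitted alone (adjusted p = 0.211). The response in Erbb2 cells minus that in untransfected cells, 0.91 ± 0.27, did not pass (adjusted p = 0.195).

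Of 10 endoplasmic reticulum members tested, Hsp90b1 alone passed, in untransfected cells, where the median was -0.01 with 5 below 0 (46.9% of all features). Their median was -0.04 in Erbb2 cells at 10 µM and -0.11 at 5 µM. Pdia4, the disulfide isomerase ERp72, was at 0.20 ± 0.16 in Erbb2 cells at 10 µM, -0.10 ± 0.22 in Erbb2 cells at 5 µM and -0.11 ± 0.22 without the transgene (adjusted p of 0.697, 1 and 0.998). Its 3 probes split, and in untransfected cells they stood at -0.72 ± 0.20, -0.63 ± 0.36 and 1.02 ± 0.59. The last of these rests on array 3, with 0.107, -0.187, 4.31 and -0.156 on the untransfected arrays. The first probe differed between the lines when tested alone, with 1.12 ± 0.25 for Erbb2 minus untransfected cells (limma adjusted p = 0.0463 over single probes). Ppib, the cyclophilin of this compartment, was at -0.09 ± 0.29 in Erbb2 cells at 10 µM, -0.91 ± 0.41 in Erbb2 cells at 5 µM and 0.12 ± 0.41 without the transgene (adjusted p of 0.944, 0.751 and 0.998). Its probes disagreed at 5 µM, with -2.71, -1.40 and -2.04 over 3 arrays on the first. The other had -0.315, -0.879, 0.24 and 0.693.

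The cytosolic chaperonin TRiC folds actin and tubulin, and Tcp1 encodes its alpha subunit. In untransfected cells Tcp1 had -0.76, -0.68, -0.56 and -0.72. In Erbb2 cells it ran from -0.57 to -0.04 at 10 µM, with a median of -0.33, and had -0.19, 0.24, -0.40 and -0.40 at 5 µM. It lay below 0 on every array at 10 µM in both lines, and the groups overlapped at a single Erbb2 array. The fitted value was -0.68 ± 0.15 in untransfected cells (a 1.60-fold change, limma adjusted p = 0.0231), -0.32 ± 0.11 in Erbb2 cells at 10 µM (adjusted p = 0.253) and -0.19 ± 0.15 at 5 µM (adjusted p = 1). Its 3 probes stood at -0.76 ± 0.23, -0.64 ± 0.17 and -0.64 ± 0.17 in untransfected cells. Leaving out any 1 untransfected array ended the call, with adjusted p from 0.0526 to 0.117, as did testing the probes singly (smallest adjusted p = 0.0507) and fitting those arrays alone (adjusted p = 0.244).

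The other 8 chaperonin genes did not pass in any group, and the median over all 9 was -0.03 in Erbb2 cells at 10 µM, -0.19 in Erbb2 cells at 5 µM and -0.34 without the transgene. Cct3, Cct4, Cct7 and Cct8, further subunits of the ring, lay below 0 on all 4 untransfected arrays, with fitted values of -0.36 ± 0.24, -0.43 ± 0.35, -0.48 ± 0.55 and -0.34 ± 0.20. Cct5 and Cct6a were at -0.02 ± 0.22 and 0.22 ± 0.36 there. The subunits thus did not share 1 sign. In Erbb2 cells at 10 µM the fitted values of the same 6 subunits ran from -0.37 for Cct4 to 0.37 for Cct7.

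Hsp90aa1 encodes the inducible cytosolic Hsp90. It was at -0.33 ± 0.13 in Erbb2 cells at 10 µM, -0.29 ± 0.18 in Erbb2 cells at 5 µM and -0.27 ± 0.18 without the transgene, with adjusted p of 0.344, 0.976 and 0.7. It lay below 0 on 7 of 8 arrays at 10 µM, on all 4 at 5 µM and on all 4 untransfected arrays. One of its 2 probes carried the shift, with -0.64 ± 0.16 in Erbb2 cells at 10 µM and -0.70 ± 0.23 in untransfected cells, while the other stood at -0.03 ± 0.15 and 0.16 ± 0.21 there.

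The small heat shock proteins hold unfolded proteins without ATP. None of 7 passed in any group. Hspb1, the Hsp25 of mouse, had log2 ratios from -0.47 to 0.48 in Erbb2 cells at 10 µM, with a median of -0.20, and 0.05, -0.31, 0.39 and 0.21 at 5 µM, against 0.15, 0.70, 1.37 and 0.44 in untransfected cells. It was above 0 on all 4 untransfected arrays, with a fitted value of 0.66 ± 0.21 (adjusted p = 0.139), and the difference of responses, Erbb2 minus untransfected, was -0.83 ± 0.25 (adjusted p = 0.222). At 5 µM, Hspb7 and Hspb8, both muscle-rich small heat shock proteins, stood apart in opposite directions, at -1.24 ± 0.34 and 1.11 ± 0.37 (adjusted p of 0.303 and 0.473). The Hspb7 log2 ratios there were -1.93, -1.52, -1.65 and 0.13, and without array 4 the fitted value was -1.69 ± 0.34 (adjusted p = 0.176). Its probes differed widely in size. The lower probe had -3.72, -2.07 and -2.73 on the first arrays and no value on array 4. The other probe had -0.135, -0.975, -0.559 and 0.127, so the value of array 4 rests on it alone. The Hspb8 log2 ratios at 5 µM were 0.88, 0.51, 0.49 and 2.56, and without array 4 the fitted value was 0.56 ± 0.34 (adjusted p = 0.957). On array 4 the Hspb8 probes stood at 0.06 and 5.06.

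Among the isomerases, Fkbp1a encodes FKBP12, the binding protein of FK506 and rapamycin. In untransfected cells it had -0.51, -0.50, -0.56 and -0.58. In Erbb2 cells it ran from -0.50 to 0.13 at 10 µM, with a median of -0.20, and had 0.19, 0.02, -0.25 and -0.49 at 5 µM. With probes averaged, the untransfected arrays lay in a narrow band just below the lowest Erbb2 array at 10 µM. Each probe alone overlapped. The first reached down to -0.73 in Erbb2 cells at 10 µM and up to -0.55 in untransfected cells. The other reached down to -0.48 and up to -0.33. The fitted value was -0.54 ± 0.13 in untransfected cells (a 1.45-fold change, limma adjusted p = 0.0437), -0.18 ± 0.09 in Erbb2 cells at 10 µM (adjusted p = 0.51) and -0.13 ± 0.13 at 5 µM (adjusted p = 1). This was the weakest of the calls, and leaving out any 1 untransfected array ended it, with adjusted p from 0.0843 to 0.193, as did fitting those arrays alone (adjusted p = 0.29).

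The other 4 Fkbp genes and 5 cyclophilin genes did not pass. Fkbp4, the Hsp90 cofactor FKBP52, was at 0.04 ± 0.17, 0.06 ± 0.23 and 0.02 ± 0.23 in the 10 µM Erbb2 arrays, the 5 µM Erbb2 arrays and the untransfected arrays. Ppia, cyclophilin A, was at 0.25 ± 0.12, 0.08 ± 0.17 and -0.12 ± 0.17 in the same order, with adjusted p of 0.467, 1 and 0.973.

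**Figure D4:**
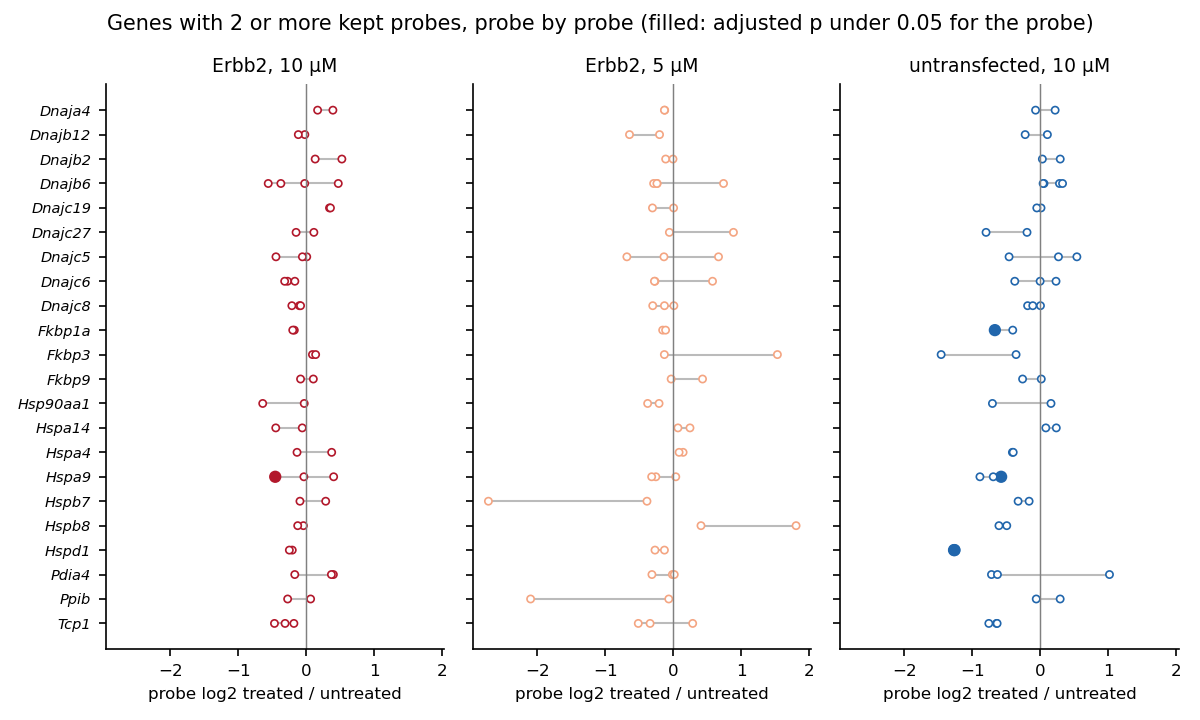
Fitted log2 ratios (x axis) of single probes for the 22 genes with 2 or more kept probes, with panels in the order Erbb2 cells at 10 µM, Erbb2 cells at 5 µM and untransfected cells at 10 µM. Points are probes, grey lines join the probes of a gene, and filled points have an adjusted p under 0.05 over single probes. All probes of a gene had 1 sign in 13, 11 and 12 of the 22 genes, and both Hspd1 probes lie together near -1.27 in untransfected cells.

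Erbb2 and untransfected cells at 10 µM were then compared directly by the difference of their responses. Of 71 genes 1 passed, Hspd1, against 0.813% of all features. Its response in Erbb2 cells minus that in untransfected cells was 1.04 ± 0.18 (limma adjusted p = 0.0123), with -0.22 ± 0.10 in Erbb2 cells and -1.27 ± 0.15 in untransfected cells. Leaving out untransfected array 2 or 4 put the adjusted p at 0.0547 or 0.0534. Each Hspd1 probe passed alone, with 1.06 ± 0.23 and 1.02 ± 0.19 (adjusted p of 0.0429 and 0.0163 over single probes). With probes averaged per gene, the arrays of both lines did not overlap for 4 of the 71 genes. Fkbp1a, Hspa4 and Hspd1 lay above the untransfected arrays in Erbb2 cells, against 2.09% of all features, and Dnajc9 lay below them, against 0.902%. Probe by probe, the lines stayed apart for Hspd1, while they overlapped or met for Fkbp1a and Hspa4. The genes that passed in 1 line and did not pass in the other are thus not shown to differ between the lines, except for Hspd1.

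**Figure D5:**
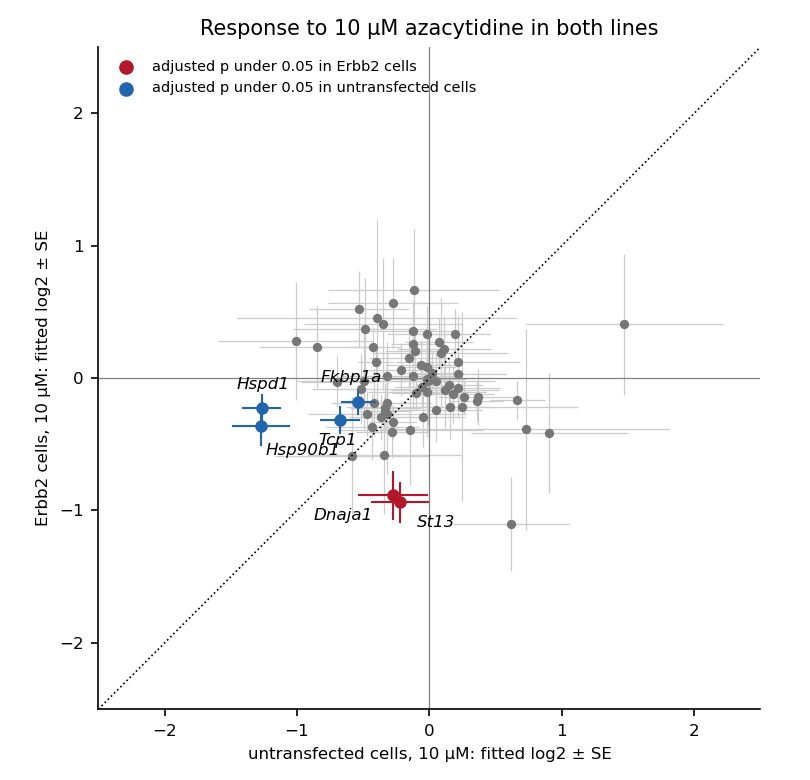
Fitted log2 ratios at 10 µM in Erbb2 cells (y axis) against untransfected cells (x axis) for the 71 genes, with bars of ± SE and a dotted line of equal response. Red points passed in Erbb2 cells and blue points in untransfected cells. St13 and Dnaja1 lie low on the y axis, at -0.94 and -0.89, while Hspd1 and Hsp90b1 lie far left, both at -1.27 on the x axis.

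Both doses in Erbb2 cells were set against untreated cells of the same line. For the difference of 10 µM minus 5 µM, 0 of 71 genes and 0% of all features passed by limma, and at an unadjusted p under 0.05 there were 1 member above and 2 below 0 (2.09% and 2.25% of all features). The smallest adjusted p was 0.998. St13 differed by -0.07 ± 0.27 and Dnaja1 by -0.46 ± 0.32.

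One sign on every array was seen below 0 for 3 members in Erbb2 cells at 10 µM (Dnaja1, St13 and Tcp1; 2.04% of all features) and above 0 for 0 (1.31%). At 5 µM it was seen for 12 below and 6 above 0 (10.2% and 8.3% of all features). In untransfected cells it was seen for 21 of 71 below 0, where 13.3% of all features were, and for 7 above 0, where 12.2% were.

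Genes that work with these chaperones outside the symbol rule mostly did not pass. Of 11 cochaperones such as Stip1, Ptges3 and the Bag genes, 0 passed in any group, and the same held for 6 prefoldin and tubulin cofactor genes and for 11 mitochondrial import and quality control genes such as Trap1 and Grpel1. Of 21 further endoplasmic reticulum genes, 1 passed, in untransfected cells, where 2.73% of all features did. It was Serpinh1, the collagen chaperone Hsp47, at -1.28 ± 0.29 (limma adjusted p = 0.0248), from -1.35 to -1.17 over 4 arrays. The lectin chaperones calnexin (Canx) and calreticulin (Calr) were at -0.56 ± 0.15 and -0.42 ± 0.13 there (adjusted p of 0.0626 and 0.131), against 0.00 ± 0.10 and 0.00 ± 0.09 in Erbb2 cells at 10 µM. The median of the 21 was -0.42 in untransfected cells, with 17 below 0 (46.9% of all features). It was -0.04 in Erbb2 cells at 10 µM, with 13 below 0 (50.6% of all features).

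Of 9 fibroblast marker genes tested, 1 passed above 0 in Erbb2 cells at 10 µM (Sparc, 0.683 ± 0.105; 0.403% of all features) and 3 below 0 in untransfected cells (Fn1, Col1a2 and Vim, from -1.63 to -0.55; 2.13% of all features). Fn1, which encodes fibronectin, also differed between the lines, as Hspd1 did, by 1.68 ± 0.25 for Erbb2 minus untransfected cells (limma adjusted p = 0.00361). In untransfected cells Krt8 of 6 epithelial markers passed above 0 (1.13 ± 0.27; 0.596% of all features). Tyrobp of 3 blood markers passed below 0 there (-0.68 ± 0.16; 2.13% of all features). Their part in the chaperone results was not tested.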

How the data were processed

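The authors deposited 1 log2 ratio per probe and array, read here as Cy5 over Cy3. In the deposited table each value equals the log2 of a ratio rounded to 0.001 plus 1 constant per array, as 100% of 928 ratios under 0.05 were whole thousandths (tolerance 0.05 thousandths). The repeated top value of an array, 1755 cells in all, stands for a ratio of 1e+05 and was set to missing beside 38737 empty cells. The sources used here do not give image analysis or background correction, and signal intensities were not used. Groups came from titles and source names.

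The sign was turned on arrays whose treated RNA was labelled with Cy3. Probes needed a value on 3 of 4 or 6 of 8 arrays of each group, and 1 array per dye arrangement, and 14813 of 20355 were kept. Probes of 1 symbol were averaged. All arrays entered 1 limma fit (version 3.58.1, R 4.3.3) with a term per group and 1 for dye, with eBayes, two-sided tests and Benjamini-Hochberg adjustment over 12420 features. The dye term passed for 0 members (unadjusted p under 0.05 for 8, smallest adjusted p = 0.524). Replicate numbers were not used to pair the arrays. Made-up data holding shifts of known size were also put through these steps. Counts follow for Erbb2 cells at 10 µM, Erbb2 cells at 5 µM and untransfected cells, in that order. Of 50 features shifted by a log2 of 0.5, 6, 0 and 1 were recovered. At a log2 of 1 it was 26, 12 and 13 of 50, and at 2 it was 44, 37 and 39. Of 12220 features without a shift, 12, 6 and 13 passed. In the made-up data small shifts were thus mostly missed, and some calls held no shift. Symbols come from the platform annotation, and RefSeq held 13994 of 14030 probes with 1 symbol by Entrez Gene ID. Named genes are all that passed and those listed beforehand by role, and others, such as Dnajc9, Dnaja3, Hspa1b, Hspb7 and Hspb8, were picked once their values were known. The members and lists were chosen with earlier results of these data known.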

Additional observations from a re-analysis of the deposited data

Results flagged for a closer look

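Single arrays stood apart from the rest of their group, by Dixon's 95% criterion, in 10 of 72 combinations of 24 named genes and 3 groups, where chance gives about 1 in 20. Of these 5 fell on array 3 of Erbb2 cells at 10 µM, 1 of the 3 arrays with the widest spread. On it Hspe1 stood at 4.10 (other arrays -1.06 to 0.23), Hsph1 at -4.66 (-0.75 to 1.34), Ppib at -2.45 (-0.47 to 1.09), Ppia at 0.99 (-0.08 to 0.43) and Hspb1 at 0.48 (-0.47 to -0.08). On array 6 of the same group Hsp90aa1 stood at -1.10 (-0.43 to 0.07). At 5 µM Dnaja1 stood at -0.155 on array 3 (-0.545 to -0.504) and Hsph1 at -1.26 on array 1 (0.26 to 0.49). On array 3 of the untransfected cells Dnaja1 stood at 1.07 (-0.80 to -0.64) and Pdia4 at 1.03 (-0.55 to -0.40).

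The response of Hspd1 differed between the lines by 1.04 ± 0.18, Erbb2 minus untransfected cells at 10 µM (limma adjusted p = 0.0123). Ppia lay above 0 on every array of Erbb2 cells at 5 µM and below 0 on every untransfected array, with fitted values of 0.08 and -0.12, a difference of 0.20 that was not tested. Of all features, 8.3% lay above 0 on every array at 5 µM and 13.3% below 0 on every untransfected array. The share with both was not counted, and Ppia was found by looking through 24 named genes.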

How the results depend on the processing

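Counts of members past the threshold were 2, 0 and 4 in Erbb2 cells at 10 µM, Erbb2 cells at 5 µM and untransfected cells, 0 for 10 µM minus 5 µM and 1 for Erbb2 minus untransfected cells. With no array turned for its dye they were 0, 0, 0, 0 and 0, with Dnaja1 at 0.21 in Erbb2 cells at 10 µM, Fkbp1a and Hspd1 at 0.031 and 0.067 in untransfected cells, and Hspd1 at -0.054 for the difference between the lines. That setting also took all features past the threshold to 2, 0 and 4 in the groups, in place of 157, 26 and 339. With the treated RNA of the untransfected cells in the other dye, that group's 4 calls were all above 0 (Fkbp1a 0.54, Hsp90b1 1.27, Hspd1 1.27, Tcp1 0.68). The difference between the lines then passed for 5 members, all below 0 for Erbb2 minus untransfected cells (Fkbp1a -0.72, Hsp90b1 -1.63, Hspd1 -1.49, Tcp1 -0.997, St13 -1.16). In Erbb2 cells at 10 µM the count was 1 with at least 2 arrays per group (a second, sparse St13 probe entered), with arrays scaled to equal spread and with array weights, and 0 with each group fitted alone or without arrays 3, 5 and 6. Array weights gave 1 at 5 µM (St13, -0.84, adjusted p = 0.0444), each group alone gave 0 in untransfected cells, and probes tested singly gave 2 for the difference between the lines (Hspd1 and Pdia4). Leaving out 1 array gave 1 to 2 in Erbb2 cells at 10 µM, 0 to 0 at 5 µM, 2 to 5 in untransfected cells, 0 to 0 between doses and 0 to 1 between lines. Without Erbb2 array 1 at 5 µM the Dnaja1 call at 10 µM also ended (adjusted p = 0.0503). The Fkbp1a call also ended with no dye term, with at least 2 arrays per group and without any of several Erbb2 arrays. Settings that left out 1 array of another group kept the fitted value of a call unchanged and could move only its shared spread. With these settings counted, Hspd1 and Hsp90b1 in untransfected cells passed below 0 in 27 of 30 settings. St13 in Erbb2 cells at 10 µM did so in 26 of 30. The cause was not tested. Same-numbered arrays correlated from -0.107 to 0.133 in what was left after the group and dye terms were fitted. The values were 0.094 to 0.133 where the dye arrangements differed and -0.107 to -0.0296 where they matched. They thus cannot tell whether the numbers pair the arrays. A replicate block (correlation 0.0699) changed no call, with counts of 2, 0, 4, 0 and 1. Setting ratios of small whole numbers to missing, chosen after seeing the data, changed no call. Signal over background is unknown, and the spread of log2 ratios between arrays limits what could be detected.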
